A study of Homo sapiens with 6 samples.

Results

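The genes described here encode 10 secreted factors that act on blood and lymphatic vessels: VEGFA, VEGFB, VEGFC, PGF, ANGPT1, ANGPT2, ANGPTL4, EDN1, FGF2 and PDGFC. They were chosen by name, with earlier results of these data known. Every probe set that GEO's platform annotation gives to exactly 1 of them was taken. These were 24 of the 54613 non-control probe sets on the array (10 of the 19775 genes named there). Signals were compared between 3 arrays of each of 2 stably transfected derivatives of SKOV3.ip1, a human ovarian carcinoma cell line. PEA-15, which the vectors encode, is an adaptor of ERK and of the death receptor adaptor FADD, and phosphorylation of its serines decides which partner it holds. The S116A line carried a PEA-15 in which alanine replaces the serine in the line's name, so that this position cannot be phosphorylated. The S116D line carried a phosphomimetic PEA-15 with aspartic acid there. The S116D titles name that serine alone, the sample characteristics add an earlier serine, and the treatment text gives yet another residue, so the number of substitutions is not settled. The labels do not say whether a line was 1 clone or a pool, or whether its arrays came from separate cultures, and p-values therefore rest on a spread among arrays that may be technical. Untransfected or empty-vector cells were not analysed here, and every difference is S116D minus S116A on the log2 scale.

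Vascular endothelial growth factors are secreted ligands of receptor tyrosine kinases on endothelial cells. VEGFA drives blood vessel growth mainly through KDR, VEGFB and PGF bind FLT1, and VEGFC binds FLT4 and drives growth of lymphatic vessels. VEGFC is made as a precursor that proprotein convertases and a CCBE1-assisted protease cut into its active form. Angiopoietins bind TEK on endothelial cells, where ANGPT1 activates the receptor and ANGPT2 mostly opposes it. ANGPTL4 inhibits lipoprotein lipase and does not bind TEK. EDN1 is a vasoconstrictor peptide released from its precursor by endothelin-converting enzyme and is also known as a growth signal of ovarian carcinoma cells. FGF2 is a heparin-binding mitogen, and PDGFC is a platelet-derived growth factor that acts on PDGFRA of stromal cells.

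Of the 10 genes, VEGFC and EDN1 were lower in S116D and none was higher. A probe set was called where its limma adjusted p (Benjamini-Hochberg, over all 54613) was under 0.05. The calls covered 4 of 24 probe sets, the only one of VEGFC and all 3 of EDN1. Over all probe sets 8.55% were called, 4.19% lower and 4.36% higher in S116D. Both probe sets of FGF2 and 1 of ANGPTL4 had an unadjusted limma p under 0.05 without being called. The share of all probe sets under that unadjusted p is not given here. In total 20 probe sets, of 8 genes, did not pass the adjusted threshold, and the largest difference among them was 0.30 in size. The median difference was -0.06 over the 24 probe sets and 0.003 over all probe sets. Probe sets differ in how strongly they bind, so a signal is compared only with the same probe set on other arrays.

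**Figure D1:**
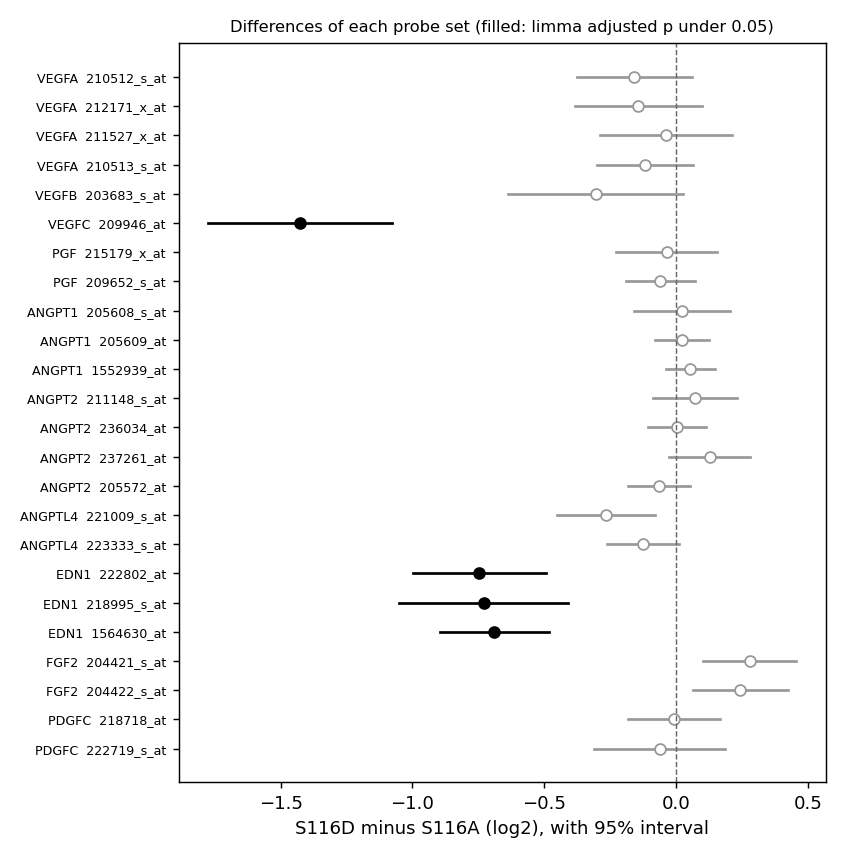
Difference between the lines for each of the 24 probe sets (S116D minus S116A, log2, horizontal axis) with limma's 95% interval. Filled points passed the adjusted threshold; they are VEGFC at -1.43 and the 3 EDN1 probe sets between -0.75 and -0.69, and the other 20 lie within 0.30 of zero.

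Because VEGFC and EDN1 were the genes that moved, the 250 bases upstream of their transcription starts are shown from RefSeq (GRCh38.p14). The set of RefSeq promoters used here covered 6 of the 10 genes. The VEGFC window is chr4:176792923-176793172 on the minus strand. For EDN1, that set of promoters lists 3 starts, and the window of the most downstream one is shown, chr6:12290111-12290360 on the plus strand. Capitals mark matches, on either strand, to a TATA box (TATAAA), a GC box (GGGCGG), an AP-1 site (TGANTCA), the core of a hypoxia response element (ACGTG) or a GATA site (GATAAG); no 2 of the matches shown overlap.
VEGFC: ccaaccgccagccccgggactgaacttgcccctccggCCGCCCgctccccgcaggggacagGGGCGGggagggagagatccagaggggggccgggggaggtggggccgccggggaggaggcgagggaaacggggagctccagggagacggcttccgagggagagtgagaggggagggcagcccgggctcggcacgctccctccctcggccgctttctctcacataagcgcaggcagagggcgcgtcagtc
EDN1: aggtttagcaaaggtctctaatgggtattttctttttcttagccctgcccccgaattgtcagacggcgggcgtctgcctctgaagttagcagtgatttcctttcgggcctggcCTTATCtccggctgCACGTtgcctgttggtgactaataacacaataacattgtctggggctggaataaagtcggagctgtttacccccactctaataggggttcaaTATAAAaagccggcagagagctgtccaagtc

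VEGFC has 2 GC boxes, 213 and 189 bases before the start, in a window of 74.0% G and C. EDN1 has a TATA box 31 bases, a hypoxia response core 123 bases and a GATA site 137 bases before the start, in a window of 49.2% G and C. Of the EDN1 windows not shown, that of the first listed start has a GC box 108 bases and hypoxia response cores 240 and 93 bases before the start, and that of the second has no match. The GC box is thus found for VEGFC and at the first EDN1 start, but not in the EDN1 window shown. Of 35116 windows of the same length, 42.6% hold the GC box, 10.7% the TATA box, 18.5% the hypoxia response core, 5.65% the GATA site and 6.57% the AP-1 site. The AP-1 letters are in none of these windows. A match is a description of letters, and binding was not measured.

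VEGFC, the lymphatic growth factor, had the largest difference of the 10 genes. Its probe set read 9.55, 9.71 and 9.40 on the S116A arrays and 8.47, 8.05 and 7.86 on the S116D arrays. The lines did not overlap, and S116D 1 was the highest of its line. The means were 9.55 ± 0.15 and 8.12 ± 0.31 (SD, n = 3 each), a fall of 2.69-fold with a 95% interval from 2.11-fold to 3.42-fold (limma adjusted p = 0.000997). Only 1 probe set reads VEGFC, so no other reading of this gene was available for comparison.

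EDN1, the endothelin-1 gene, was lower on each of its 3 probe sets by nearly the same amount. On the brightest of them the S116A arrays read 12.65, 13.04 and 12.64 and the S116D arrays 12.04, 12.06 and 12.00, a difference of -0.75 ± 0.11 (SE) with limma adjusted p = 0.0046. The second probe set read 11.54, 11.95 and 11.80 against 10.78, 11.11 and 11.22, a difference of -0.73 ± 0.14 (limma adjusted p = 0.015). S116A was above S116D on every array of both, with a narrow spread in S116D on the first and a wider one on the second. The dimmest probe set read 9.86, 9.65 and 9.86 against 9.16, 9.13 and 9.01, a difference of -0.69 ± 0.09 (limma adjusted p = 0.0025). These differences correspond to falls between 1.61-fold and 1.68-fold, and their 95% intervals overlap one another. The call of the second probe set ended without S116A 2 (limma adjusted p = 0.061, difference -0.64); the probe sets read the same RNA and are not replicates.

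**Figure D2:**
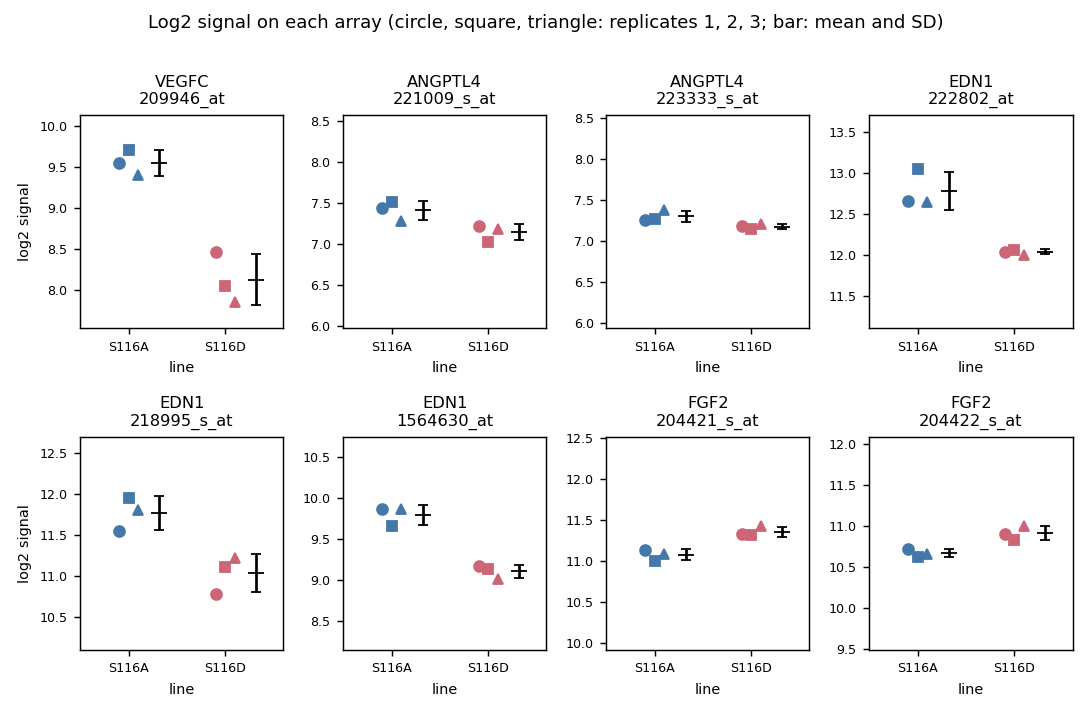
Log2 signal (vertical axis) on each of the 6 arrays for VEGFC, ANGPTL4, EDN1 and FGF2, with blue for S116A, red for S116D, and the mean with its SD beside each line; every panel spans the same number of log2 units. The lines are separated on all 8 probe sets, with differences of -1.43 for VEGFC and of -0.27 and -0.13 for ANGPTL4.

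The other VEGF ligands did not pass the threshold. VEGFA on its brightest probe set read 11.59, 11.80 and 11.69 in S116A and 11.68, 11.41 and 11.51 in S116D, with overlapping lines and a difference of -0.16 (95% interval -0.37 to 0.06, limma adjusted p = 0.45). Its other 3 probe sets differed by -0.14, -0.12 and -0.04, at limma adjusted p of 0.53 and above. All 4 intervals included zero, and the smallest of these differences changed sign without S116A 1, S116A 2 or S116D 3.

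VEGFB read 8.43, 8.49 and 8.10 in S116A and 8.33, 7.86 and 7.91 in S116D, a difference of -0.30 (95% interval -0.64 to 0.03, limma adjusted p = 0.31). Here S116D 1 lay among the S116A arrays. PGF, the placental growth factor, read 10.39, 10.61 and 10.45 against 10.47, 10.42 and 10.45 on its brighter probe set, a difference of -0.04 (95% interval -0.23 to 0.16, limma adjusted p = 0.90). The dimmer PGF probe set differed by -0.06 (limma adjusted p = 0.70). The lines overlapped on both PGF probe sets.

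VEGFC was also set against its relatives on the same array, where a scaling factor common to the array cancels. The VEGFC probe set minus the brightest VEGFA probe set was between -2.30 and -2.04 on the S116A arrays and between -3.66 and -3.21 on the S116D arrays. VEGFC minus VEGFB was between 1.12 and 1.29 against -0.06 and 0.18. EDN1 minus VEGFA, each on its brightest probe set, was between 0.95 and 1.24 against 0.36 and 0.64, and EDN1 minus ECE1, the enzyme that converts it, between 2.65 and 3.08 against 2.39 and 2.70. The lines were apart on the first 3 of these contrasts and overlapped on the last. The pairs were chosen with the values known, so they are given as descriptions with no test.

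The angiopoietins gave dim signals and small differences. All 4 ANGPT2 probe sets and 2 of the 3 of ANGPT1 lay below the lower quartile (6.62 to 6.65) on every array. ANGPT1 on its brightest probe set read 7.72, 7.60 and 7.87 in S116A and 7.72, 7.76 and 7.78 in S116D, a difference of 0.02 (95% interval -0.16 to 0.20, limma adjusted p = 0.94). ANGPT2 on its brightest probe set read 6.16, 6.23 and 6.21 against 6.37, 6.31 and 6.13, a difference of 0.07 (95% interval -0.09 to 0.23, limma adjusted p = 0.70). The lines overlapped on both. Without detection calls it cannot be said whether such probe sets read transcript or background, and a difference in a transcript near background would be compressed.

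ANGPTL4, the lipoprotein lipase inhibitor, lay below the median signal and did not pass. Its probe set with the higher mean read 7.43, 7.51 and 7.28 in S116A and 7.21, 7.03 and 7.18 in S116D, a difference of -0.27 (95% interval -0.45 to -0.08, limma adjusted p = 0.092, unadjusted p = 0.011). The other ANGPTL4 probe set differed by -0.13 (limma adjusted p = 0.31). The lines did not overlap on either probe set. This was so for 24.0% of all probe sets and for 9 of the 24 here, namely those of VEGFC, EDN1, ANGPTL4 and FGF2 and 1 of ANGPT1. The first ANGPTL4 probe set passed the threshold when arrays were weighted by quality (limma adjusted p = 0.036) and without S116A 3 (0.045).

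FGF2 had the largest difference toward higher signal in S116D, without passing. Its brighter probe set read 11.14, 11.01 and 11.09 in S116A and 11.33, 11.32 and 11.43 in S116D, a difference of 0.28 ± 0.08 (SE), with a 95% interval from 0.10 to 0.46 and limma adjusted p = 0.063. The dimmer FGF2 probe set differed by 0.24 (limma adjusted p = 0.11). Each S116D array lay above each S116A array on both probe sets. The brighter one passed under quantile normalization (limma adjusted p = 0.037), without the intensity trend (0.035), with array weights (0.039) and with the replicate number as a block (0.033), so its call depends on these settings.

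PDGFC had bright signals that differed little. Its brighter probe set read 12.92, 12.87 and 12.93 in S116A and 13.04, 12.84 and 12.82 in S116D, a difference of -0.01 (95% interval -0.18 to 0.17, limma adjusted p = 0.98). The second differed by -0.06 (95% interval -0.31 to 0.19). S116D 1 was the highest array on the first and S116A 1 on the second.

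**Figure D3:**
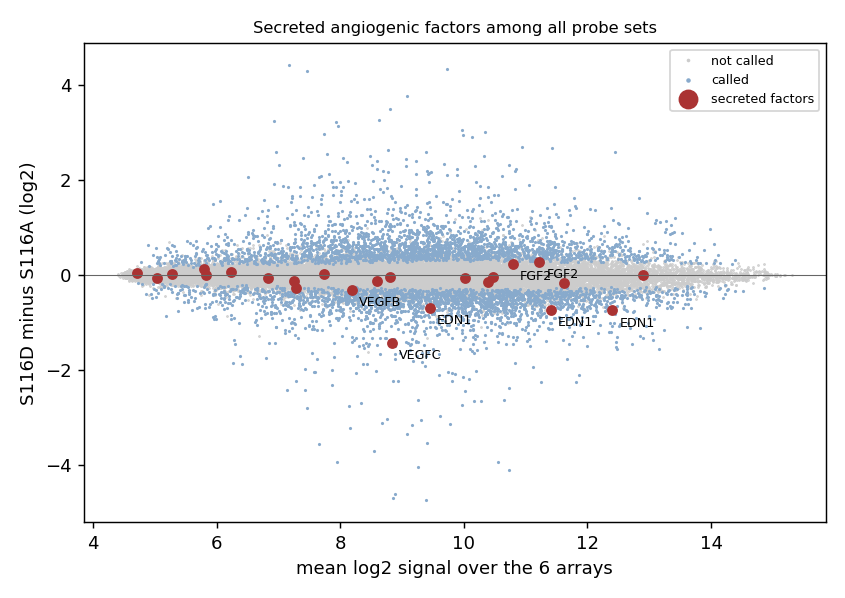
Difference between the lines (S116D minus S116A, log2) against the mean log2 signal over the 6 arrays for all 54613 probe sets, grey where not called and blue where called, with the 24 probe sets of the secreted factors in red. VEGFC lies at -1.43 and EDN1 at -0.75 to -0.69, all of them called, and FGF2 at 0.24 and 0.28, not called.

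The 6 arrays were closely scaled, with medians from 7.86 to 7.89. The second principal component (20.3% of the variance) split them into a first set of S116D 1 with S116A 1 and 2, and a second of S116A 3 with S116D 2 and 3, which no label names. The GAPDH 3′ to 5′ log2 ratio, a sign of RNA quality, was 0.73 to 0.79 in the first set and 0.65 to 0.71 in the second, whereas the ACTB ratio did not follow the sets (2.33 to 2.44 and 2.27 to 2.47). VEGFC differed by -1.16 within the first set and -1.44 within the second, and the 3 EDN1 probe sets by -0.97 to -0.60 and -0.79 to -0.61. FGF2 differed by 0.26 and 0.28 on its brighter probe set and by 0.23 and 0.25 on the other. The lines did not overlap on any of these probe sets, so the direction within each set was fixed in advance and adds no support. Each set holds only 1 array of 1 of the lines. With these sets as a block, an alternative added after the data were seen, both FGF2 probe sets passed (limma adjusted p = 0.024 and 0.047), along with 14.8% of all probe sets against 8.55% without it. VEGFB also tracked the sets, with 8.33 to 8.49 in the first and 7.86 to 8.10 in the second. So did probe sets of VEGFA, PGF and PDGFC, such as 1 of VEGFA with 8.89 to 8.95 against 8.61 to 8.75. The brightest ANGPT1 probe set went the other way, with 7.60 to 7.72 in the first set and 7.76 to 7.87 in the second. The part of RNA quality in these values was not tested.

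Genes that process or present these ligands were lower in S116D where they were called. Of 15 genes on that list 5 had called probe sets, all lower, with 9 of 27 probe sets called (33.3%, against 8.55% of all) and a median difference of -0.14. CCBE1 and PCSK5 gave 3 of these calls each, and probe sets of the same gene are not replicates. This list and those below were drawn up with earlier results of these data known, so their shares are descriptions. FGFBP1, a secreted carrier that releases FGF2 from the matrix, fell from 11.97 ± 0.12 to 9.33 ± 0.07 (SD, n = 3 each), 6.23-fold (limma adjusted p = 3.81e-06). CCBE1, the matrix protein that assists the cutting of VEGFC, fell from 12.09 ± 0.02 to 10.15 ± 0.16, 3.84-fold (limma adjusted p = 1.73e-05). All 3 CCBE1 probe sets were called, at -1.94 to -1.41.

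PCSK5, a proprotein convertase able to cut VEGFC, was lower on all 3 of its probe sets, at -1.06 to -0.91 (limma adjusted p 0.0010 to 0.0066). GPC1, a cell-surface heparan sulfate proteoglycan that binds FGF2, was lower on 1 of 2 probe sets (-0.71, limma adjusted p = 0.026). That call ended without S116A 1, S116A 2, S116D 2 or S116D 3, at limma adjusted p of 0.083 to 0.103. ECE1, the endothelin-converting enzyme, was the fifth called gene and was named after its values were seen. It was lower on 1 of 2 probe sets (-0.43 ± 0.10, SE, limma adjusted p = 0.034) and differed by 0.04 on the other. FURIN (-0.06) and ADAMTS3 (0.01), the protease that CCBE1 assists, were also named afterwards and did not pass (limma adjusted p = 0.81 and 0.97); ADAMTS3 lay below the lower quartile on every array.

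**Figure D4:**
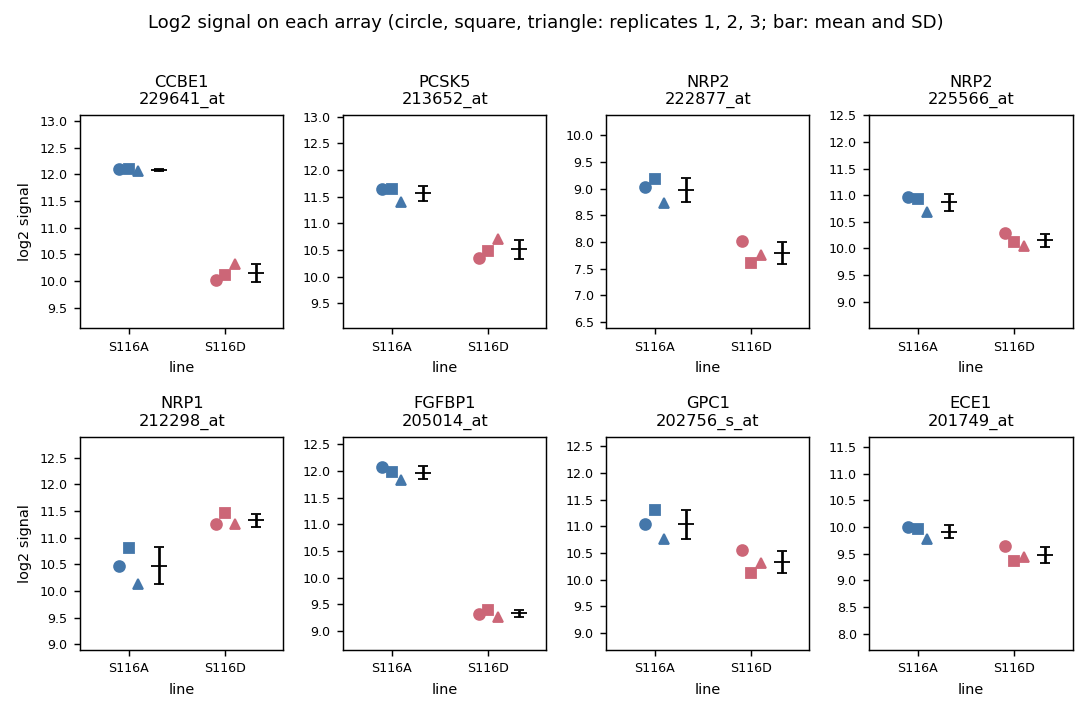
Log2 signal (vertical axis) on each of the 6 arrays for genes that process, bind or present the factors, with blue for S116A, red for S116D, and the mean with its SD beside each line; every panel spans the same number of log2 units. FGFBP1 and CCBE1 show the widest gaps, at -2.64 and -1.94, and NRP1 alone is higher in S116D.

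Receptors for these factors are mostly genes of endothelial and stromal cells, and 4 of the 14 measured here were called. The co-receptors for VEGF family ligands moved in opposite directions. NRP2, which binds VEGFC, was lower on 4 of its 11 probe sets and called higher on none. On the probe set with the smallest adjusted p it read 9.04, 9.17 and 8.73 in S116A and 8.01, 7.61 and 7.76 in S116D, a fall of 2.28-fold (limma adjusted p = 0.0014). NRP1, which binds VEGFA, was higher on 2 of its 4 probe sets, with 10.47, 10.81 and 10.12 against 11.25, 11.47 and 11.25 on the brighter of them (0.85 ± 0.16, SE, limma adjusted p = 0.014).

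KDR, the main VEGFA receptor, and TEK, the angiopoietin receptor, were called lower on dim probe sets. KDR read 6.10, 6.19 and 6.17 against 5.79, 5.76 and 5.63 (-0.43, limma adjusted p = 0.0036), below the lower quartile on every array. TEK differed by -0.25 on a probe set equally dim, where the call ended without any 1 of 5 arrays (S116D 1 being the exception) and without the intensity trend, and by 0.07 on its other probe set. FLT4, the VEGFC receptor (3 probe sets, -0.08 to 0.10), FLT1 (6, -0.16 to 0.10) and EDNRB (3, -0.09 to 0.01), all named after their values were seen, did not pass.

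Of 14 measured relatives of these ligands only FGF18, another fibroblast growth factor, was called, lower on 3 of 6 probe sets at -0.61 to -0.56. On the first of these, the call ended at limma adjusted p of 0.051 to 0.053 without S116A 1, S116D 2 or S116D 3. Over that list 9.38% of 32 probe sets were called with a median of -0.05, and over the receptor list 13.1% of 61 with a median of -0.002.

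Endogenous inhibitors of vessel growth moved in both directions. Of 12 genes 2 were higher, 1 was lower and 9 did not pass, with 23.1% of 39 probe sets called and a median of 0.08. THBS1, the anti-angiogenic matrix protein thrombospondin-1, rose on 5 of its 7 probe sets by 0.66 to 1.23. On the probe set with the smallest adjusted p it went from 10.80 ± 0.07 to 11.83 ± 0.06 (SD, n = 3 each; limma adjusted p = 0.000171). SPARC, a matrix protein that binds growth factors, rose by 1.13 and 0.93 on its 2 probe sets, and ADAMTS1, a protease that can trap VEGFA, fell by 1.08 and 0.96.

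Hypoxia-inducible factors are known activators of VEGFA, EDN1 and ANGPTL4. Of the 8 genes of that pathway only EPAS1, which encodes HIF-2α, was called, higher by 1.14 ± 0.21 (SE, limma adjusted p = 0.012) on 1 of 3 probe sets. HIF1A differed by 0.12 (limma adjusted p = 0.31) and was named afterwards. Of the 23 probe sets of the pathway 4.35% were called, against 8.55% of all, with a median of 0.009. The hypoxia target genes were split, with 2 of 18 measured genes higher, 3 lower and 13 not called (18.9% of 37 probe sets, median -0.16). HK2, a hexokinase, was called lower on all 3 of its probe sets, at -1.46 to -0.36. On the probe set with the smallest adjusted p it fell 2.75-fold (limma adjusted p = 0.000887). NDRG1 fell by 0.94, whereas PFKFB3, which makes a glycolysis activator, rose by 0.55 and the enolase gene ENO2 by 0.68. PGK1 was the remaining fall, on 1 of 6 probe sets (-0.60), and was named afterwards. The NDRG1 call ended without S116A 2, S116D 2 or S116D 3 (limma adjusted p 0.060 to 0.065) and that of ENO2 without S116A 2 or S116A 3 (0.072 and 0.054).

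PPAR targets, listed because ANGPTL4 is one of them, were split as well. Of 8 measured genes CPT1A, the carnitine palmitoyltransferase of fat oxidation (0.65 and 0.38 on 2 of 4 probe sets), and SLC25A20, the carnitine carrier (0.41), were higher. PDK4 was lower (-0.76 on 1 of 3 probe sets), and 5 genes did not pass (20% of 20 probe sets called, median 0.006). The call of SLC25A20 ended without S116A 1, S116A 2, S116D 2 or S116D 3 (limma adjusted p 0.105 to 0.120) and that of PDK4 without S116A 2, S116D 2 or S116D 3 (0.061 to 0.068).

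Marker lists were read beside these values. Of 10 genes typical of ovarian carcinoma lines 7 had a probe set above the upper quartile on every array, among them PAX8, EPCAM and ERBB2, while MUC16 lay below the median at 6.56 to 6.78. Of the same list KRT8, KRT18, KRT19 and EPCAM were called lower in S116D and FOLR1 higher (22.7% of 22 probe sets). Of 14 endothelial markers 3 were called, all lower in S116D: KDR and TEK, on probe sets below the lower quartile, and MMRN2 (13.8% of 29 probe sets called, against 8.55% of all). MMRN2 was called on 2 of its 3 probe sets, and the 3 differences ran from -1.27 to -0.14. EGFL7, named after its values were seen, went the other way without a call (0.26, limma adjusted p = 0.065). The summed log2 signal of the endothelial list was 201.9 to 203.7 in S116A and 199.7 to 201.3 in S116D. Such a sum weighs each probe set alike and is not an amount of RNA. CDH5 lay below the lower quartile at 5.78 to 6.01, and array values have no zero. PECAM1 and TEK each had a probe set above the upper quartile on every array, and neither of these 2 was called. Of 10 pericyte and fibroblast markers RGS5 was called (higher; 2.86% of 35 probe sets), with sums of 243.8 to 245.9 against 244.0 to 246.1. None of 8 measured leukocyte markers was called by limma, and 0 of their 22 probe sets had an unadjusted p under 0.05, with sums of 147.7 to 149.1 against 148.4 to 148.8. In bulk RNA, fewer cells of a type and less RNA per cell cannot be told apart, and the part of other cells in the results was not tested.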

How the data were processed

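The deposited table holds 1 value per probe set and array of an Affymetrix HG-U133 Plus platform, hybridised with biotin-labelled RNA per the labels' protocols. MAS5 and RMA are named, with no role, in the submitters' processing notes; their versions and any filters were not given in the sources used here. Log2 is the scale read from the deposited values, since all lay between 4.34 and 15.33 and the array quartiles nearly coincided. If the values are a multi-array summary such as RMA, differences of dim probe sets are compressed, but the sources do not say which method gave them. No detection calls were used.

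Control probe sets (62) were left out of 54675. Of the 54613 others, 41091 had 1 gene, with symbols updated through RefSeq (GRCh38.p14), 1801 had several and 11721 are unnamed here. All were fitted together with limma 3.58.1 in R 4.3.3 (lmFit, eBayes with an intensity trend, no covariate), with Benjamini-Hochberg adjustment; SE and 95% intervals are limma's, and folds are 2 to the power of the difference. The number of arrays, 3 per line, limits precision. The fit was tested on simulated data.

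Groups came from the titles. Described were all 10 genes and, of each pathway list, up to 4 called genes with the smallest adjusted p; others are marked as named afterwards. The members and lists were chosen with earlier results of these data known. Listed genes that no probe set names alone were not analysed here. Alternatives tried were no trend, array weights, quantile normalization, centring on the median, leaving out dim probe sets, the replicate number as a block, unshared probe set types, 1 value per gene, leaving out each array, and the sets of arrays as a block.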

Additional observations from a re-analysis of the deposited data

How the results depend on the processing

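VEGFC and the brightest and the dimmest EDN1 probe sets kept their call and direction under each of 14 alternatives, at -1.60 to -1.29 for VEGFC (limma adjusted p up to 0.0075). The count of called genes among the 10 was 2, 4 with array weights, which added FGF2 and ANGPTL4, and 3 with FGF2 under quantile normalization, no trend, the replicate block or the array sets as a block, or with ANGPTL4 without S116A 3; on the brightest probe set or the median of the probe sets of a gene it was 2. Over all probe sets the share called was 8.55%, against 11.7% with array weights, 8.82% under quantile normalization and 9.17% with no trend. It was 13.4% with the replicate block, 14.8% with the array sets as a block and 8.34% without S116A 3. The count of called probe sets among the 24 was 3 to 5 when 1 array was left out. Among all probe sets 4672 were called, against 7340 with the replicate block, 8099 with the array sets as a block, 2947 of fewer probe sets without shared types, and 2608 to 4674 when 1 array was left out. Pathway list probe sets called numbered 41, against 59 with the replicate block, 60 with the array sets as a block, 55 with array weights, 24 without shared types and 25 to 46 when 1 array was left out.

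Differences near zero changed sign without a call. That of 1 ANGPT2 probe set (0.005) became -0.0027 with quantile normalization, -0.0073 with median centring, -0.00078 with array weights and ranged from -0.014 to 0.030 when 1 array was left out. PDGFC became 0.028 with quantile normalization, and 0.020 and 0.0074 on its 2 probe sets with the array sets as a block, which also gave 0.050 for 1 VEGFA probe set and -0.023 for 1 ANGPT1 probe set. When 1 array was left out, that VEGFA probe set ranged from -0.14 to 0.030, the brighter PGF probe set from -0.083 to 0.028, that ANGPT1 probe set from -0.044 to 0.094, and the PDGFC probe sets from -0.078 to 0.032 and from -0.16 to 0.0095. The causes were not tested.

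Same-numbered arrays of the lines deviated together from their group means at r of 0.45, -0.04 and 0.44 across probe sets. Arrays numbered 1 and those numbered 3 shared an array set across the lines, and those numbered 2 did not. The labels name no pairing, and the numbers were not taken as pairs in the main fit. With the replicate number as a block, FGF2 was added (limma adjusted p = 0.033) and no call of the 10 genes ended. Signal over background could not be judged.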
